A study of Homo sapiens with 18 samples.

Results

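The regions described here are 7889 m6A peaks whose midpoints lie more than 400 bases into the last exon of their gene, out of 39708 peaks deposited for METTL3 wild-type (WT) and METTL3 K513R LoVo cells. LoVo is a colorectal cancer line of human origin, long established in culture, METTL3 is the catalytic subunit of the complex that methylates mRNA, and in K513R a lysine of METTL3 is replaced by arginine. Each genotype had 3 input and 3 IP libraries of methylated RNA immunoprecipitation (MeRIP) and 3 RNA-seq libraries, 6 groups in all. No treatment is given in the labels, which also do not say whether K513R is a single clone, how the change was introduced, and whether the 3 libraries came from separate cultures, so each p-value measures only the spread between these libraries. In MeRIP-seq, fragmented poly(A) RNA is pulled down with an antibody to N6-methyladenosine (m6A), and the IP is read against an input kept from the same fragments. The members were taken from all peaks of the WT list plus the K513R peaks that overlap no WT peak on the same strand, up to 5000 bases from start to end, and the gene of a peak is the one with most merged-exon bases under it. This left 25342 non-redundant peaks, and the deep last-exon peaks were 31.1% of them.

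m6A is written mainly at short motifs around a central adenosine, and in mammalian mRNA it is known to be dense in long exons and around stop codons, which usually lie near the beginning of the last exon. Exon junction complexes, laid down just upstream of splice junctions, keep m6A away from nearby sequence, so a long last exon is a stretch that is mostly free of them. Most of a long last exon is usually untranslated, and m6A there is read by YTH proteins that recruit deadenylases. Coding and untranslated bases were not separated here, since only merged exons were used.

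Stretches of sequence could be shown for a few members, because some RefSeq GRCh38.p14 promoter or microRNA hairpin entries happen to lie over a deep peak. They were chosen because they hold GGACT, a common form of the m6A motif, on the strand of the RNA, and show what surrounds that motif in such a peak. Whether these adenosines are methylated cannot be read from the peak data. Each is given 5′ to 3′ with GGACT in capitals and 8 bases on each side. In order they lie at chr3:197674539-197674559 (minus strand), chr22:41923276-41923296 (minus), chr16:71641137-71641157 (plus), chr6:41097999-41098019 (plus) and chr9:137217310-137217330 (plus).
RUBCN, in the MIR922 hairpin: cctgtcctGGACTggggtcag
TNFRSF13C, in the MIR378I hairpin: ggagcactGGACTaggagtca
MARVELD3: ctctctttGGACTgaggcaaa
NFYA: atatttctGGACTctagccaa
NDOR1: gatcgccaGGACTgcgttctg

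These sites lay 36 (MARVELD3), 45 (NFYA), 47 (RUBCN), 78 (TNFRSF13C) and 80 (NDOR1) bases from the midpoint of their peak. Further stretches with GGACT, in GMPPB, TATDN2, YLPM1, GFAP, PIMREG and ESS2, are not shown. GGACT was searched on the RNA strand only. The middle 101 bases of the peak were covered by a promoter entry for 24 deep peaks, and 6 of these 24 windows held it (25%), against 3138 of 35116 middle windows of all promoter entries (8.94%). The window of NDOR1 did not hold it, as the site shown lies outside the middle 101 bases of that peak. With 24 windows the comparison of shares is a description. It concerns members that happen to lie at an annotated gene start, which in 2 of the 24 is a start of the host gene itself. In the others it is a start of another gene. The peak of RUBCN, an autophagy regulator, had its midpoint 694.5 bases into the last exon and a deposited fold enrichment of 5.53. The peak of TNFRSF13C, the BAFF receptor, had 21.8 and that of MARVELD3, a tight junction protein, 26.4. The peaks of NFYA, a subunit of the CCAAT-binding factor, and of NDOR1, a flavoprotein reductase, had 11.8 and 4.57. Fold enrichment is the authors' ratio of IP over input for each peak.

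The 7889 deep peaks fell in 4611 genes. Of these genes 2725 had 1 deep peak, 1886 had at least 2 and 152 had at least 5. The median midpoint lay 1373 bases after the start of the last exon (quartiles 753 and 2584.5) and 1406 bases before the gene end (quartiles 540.5 and 2844.5), in last exons with a median of 3373 bases. At 51.9% of the exon's length the median position was close to its middle, and 3739 peaks (47.4%) were nearer to the start of the exon than to its end. Within 150 bases of the gene end there were 701 peaks, and the midpoints of 5 peaks lay beyond it. Host genes had a median last exon of 2792 bases, against 1130 bases in genes whose only last-exon peaks lay within the first 400 bases. A last-exon-start peak was also present in 1210 of the host genes (26.2%), while 42.0% of the 2878 genes with a start peak had a deep one. Both lists held 2776 members, 4249 were in the WT list only and 864 in the K513R list only. Some lie on the same bases, since 309 members overlap another member on their strand, and merging them leaves 7730 stretches.

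**Figure D1:**
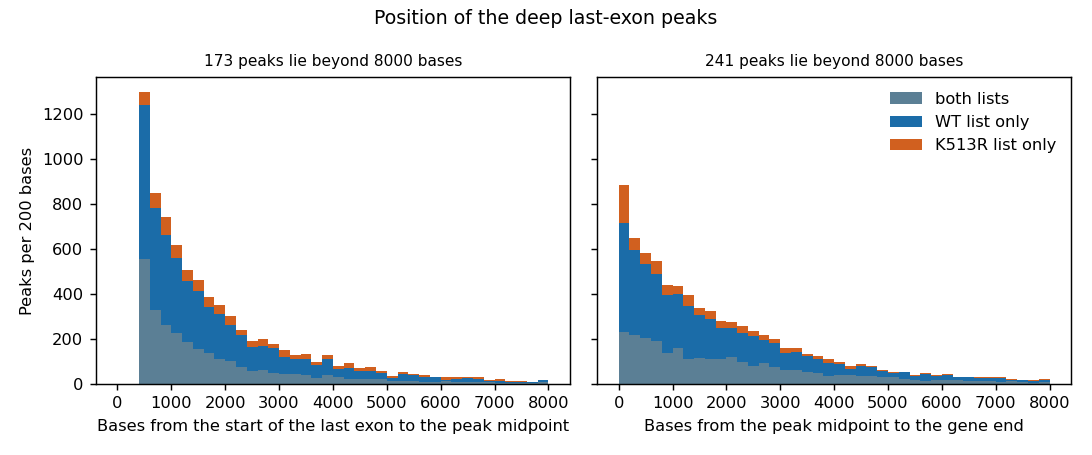
Number of deep last-exon peaks per 200 bases (vertical axis) by the distance of their midpoint from the start of the last exon (left) and to the gene end (right), coloured by the list they were called in; the few longest distances are counted above each panel and not drawn. Numbers fall from the 400-base limit onward, and the medians are 1373 and 1406 bases.

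Deep peaks had a median deposited fold enrichment of 6.12 (quartiles 3.27 and 10.8) and a median length of 212 bases. The median was 5.26 at last-exon starts, 4.90 in internal exons, 4.29 in first exons, 3.52 in peaks whose midpoint lies between exons and 7.27 in single-exon genes. The highest deposited enrichment among members with a mean input of at least 5 CPM (counts scaled to library size) was 117, in the zinc finger gene ZNF181 (chr19:34740622-34741490, 445 bases into the last exon). NRBF2, a partner of the autophagy lipid kinase, followed with 104, ZNF283 with 101 and the membrane protein gene FAM171A1 with 82.8. These peaks lay 445 to 1585 bases into their exons.

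In K513R cells m6A enrichment of deep peaks, relative to that of all tested peaks, was lower on balance. IP and input libraries were each scaled among themselves, so a change common to all peaks cannot be read. Each fall or rise is relative to other peaks and not an absolute loss or gain of m6A. The level of a peak is log2 of its IP CPM over its input CPM, each with 0.5 added and scaled to the tested peaks, so 0 is the typical enrichment of these peaks and not equality of IP and input. The median over the tested deep peaks was 0.35, 0.39 and 0.34 in the WT libraries and 0.03, 0.01 and 0.04 in the K513R libraries. All 3 K513R medians were below all 3 WT medians. In single peaks the 3 K513R values lay below the 3 WT values in 28.8% of the tested deep peaks and above them in 8.44%. Over all deposited peaks tested, redundant ones included, these shares were 21.2% and 22.6%. The interaction of genotype and IP was tested with edgeR over all deposited peaks that passed a low-count filter (27252), of which 4229 were deep members. Of these 4229 peaks, 562 fell (13.3%) and 152 rose (3.59%) at an adjusted p under 0.05. Of the falls 335 were in members of the WT list only, and of the rises 77 in members of the K513R list only. Such members were chosen for their signal in 1 genotype. Among tested members in both lists 10.3% fell and 3.27% rose. For peaks of both lists elsewhere these shares were 14.4% and 2.13% at last-exon starts and 13.7% and 7.39% in single-exon genes. They were 8.12% and 10.0% in internal exons, 9.04% and 23.1% between exons and 2.39% and 23.8% in first exons. The background over all peaks, given next, also holds peaks of 1 list only. The background over all deposited peaks tested was 9.61% lower and 13% higher, and over the non-redundant ones 11.4% lower and 10.8% higher. Of all tested deep peaks the share that rose was thus well under this background, and the share that fell slightly above it. The median change was −0.40 (log2, quartiles −0.89 and 0.15) in deep peaks, −0.05 in all tested peaks and −0.20 in the non-redundant ones.

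The remaining 3660 members did not pass the filter, with a median of 1 input and 4 IP counts per library against 18 and 44 in the tested members. They are not weak by the authors' ratio, at a median of 7.27 against 5 in tested members. The number of calls followed the depth. In 4 equal groups of rising mean input CPM the share of tested deep peaks that fell was 3.69%, 8.04%, 15.4% and 26.0%, while the median change was −0.29, −0.50, −0.45 and −0.35. The counts inside deep peaks ran from 798655 to 972432 per WT IP library and from 429914 to 561520 per K513R IP library, so K513R values rest on fewer counts. The median SD over 3 libraries was 0.29 in WT and 0.48 in K513R.

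**Figure D2:**
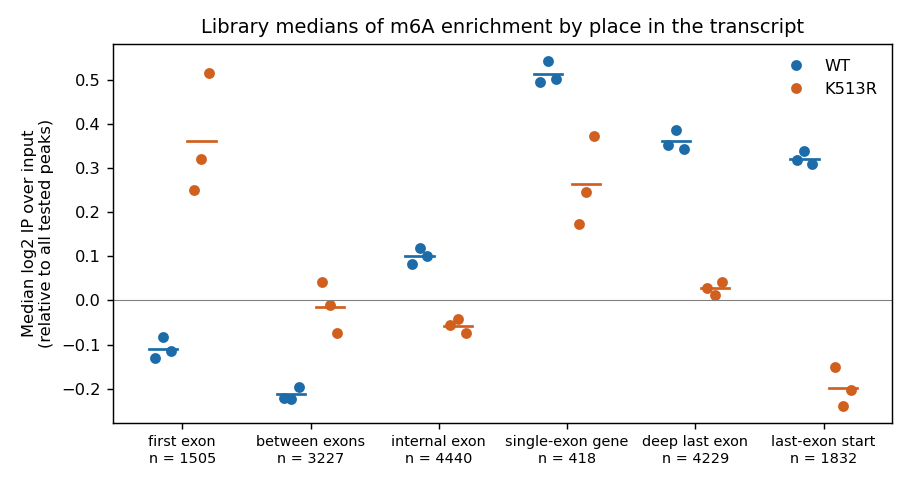
Median log2 IP over input of tested non-redundant peaks in each of the 6 library pairs (points; bars are means of 3) by place of the peak in its gene. In deep last-exon peaks WT lies at 0.34 to 0.39 and K513R at 0.01 to 0.04; in first-exon peaks the order of the genotypes is the opposite.

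Other places in the gene moved in the same or in the opposite direction under the same fit. Last-exon-start peaks had a median change of −0.56, with 318 of 1832 lower and 27 higher, peaks of single-exon genes −0.37, with 69 of 418 lower and 33 higher, and internal-exon peaks −0.24. First-exon peaks had a median of +0.63, with 368 of 1505 higher and 45 lower, and peaks between exons +0.27. The classes were not tested against each other. The deep peaks as a whole took 13.7%, 12.8% and 13.5% of the counts of WT IP libraries in non-redundant peaks and 10.9%, 10.4% and 10.7% of those of their inputs. In K513R they took 11.1%, 12.2% and 13.2% of IP and 11.7%, 12.6% and 12.9% of input counts. The ratio of the IP to the input share was 1.25 ± 0.017 (SD, n = 3) in WT and 0.977 ± 0.039 in K513R, with no overlap. The input shares did not overlap, with WT the lower, while the IP shares did.

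Some choices of scaling change this balance. Scaling by library size alone moved the median of all tested peaks to −0.26 and that of deep peaks to −0.62, with 68 higher (1.61%, background 6.65%) and 818 lower (19.3%, background 14.4%). The distance between both medians stayed at −0.35. Fitting only non-redundant peaks gave 207 higher (4.91%, background 13.7%) and 379 lower (9%, background 8%), with medians of −0.27 and −0.08. Of the calls 78.7% were falls in the fit reported, 92.3% with library size and 64.7% with non-redundant peaks. Leaving out WT replicate 1, 2 or 3, or K513R replicate 2, cut the falls to 179, 186, 191 and 284 and the rises to 44, 48, 47 and 78. The median stayed between −0.42 and −0.38.

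The list in which a peak was called goes with its direction. Peaks of the WT list only had a median change of −0.76 (335 of 1825 fell, 3 rose) and peaks of the K513R list only +1.20 (77 of 201 rose, and 0 fell by edgeR's adjusted p, by DESeq2 or at an unadjusted p under 0.05). These values describe how the lists were made as much as the genotypes, because a list-only peak was chosen for its signal in 1 genotype. The same holds for each single list-only peak given further on, whose direction, adjusted p and stability are a description. The list is stated there for most of these peaks. The 2203 tested members in both lists were called in both genotypes. Their median was −0.21, with 227 lower (10.3%) and 72 higher (3.27%), and their library medians were 0.66, 0.70 and 0.68 in WT and 0.37, 0.44 and 0.57 in K513R. Peaks of both lists had medians of −0.34 at last-exon starts, −0.06 in internal exons and +0.65 in first exons.

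Position within the exon went with the size of the change. Peaks 400 to 700 bases into the exon had a median change of −0.54, with 186 of 1118 lower and 16 higher. Between 3000 and 5000 bases the median was −0.27, with 43 lower and 28 higher of 443. Beyond 5000 bases it was −0.13, with 15 lower and 18 higher of 241. Among peaks of both lists the same bins had medians of −0.35, −0.07 and +0.22. Toward the other end, peaks within 150 bases of the gene end stood apart from the rest of the exon. Their median was +0.07, with 26 of 275 higher and 10 lower, against −0.48 at 150 to 300 bases (7 higher and 44 lower of 278) and −0.54 at 300 to 600 bases. In both lists the peaks within 150 bases of the end had a median of +0.40. These bins were not tested against each other. Just outside the limit that defines the members, 851 peaks 300 to 400 bases into the exon had a median of −0.56, and just inside it 715 peaks at 400 to 500 bases had −0.58.

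**Figure D3:**
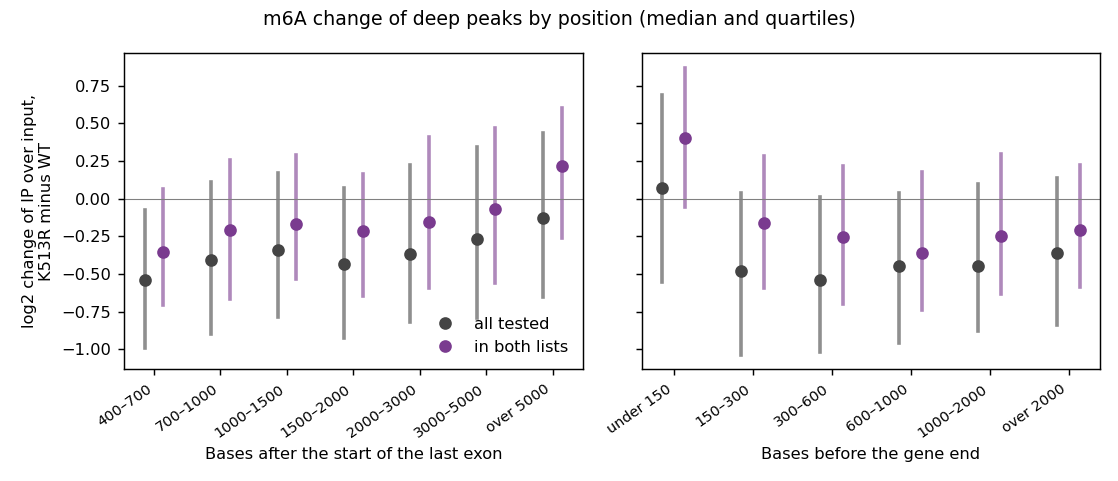
log2 change of IP over input between genotypes (vertical axis, K513R minus WT; points are medians and lines run from the lower to the upper quartile) by distance from the start of the last exon (left) and to the gene end (right), for all tested deep peaks and those in both lists. The median of all tested peaks is −0.54 at 400 to 700 bases and −0.13 beyond 5000, and only the bin next to the gene end has a median above 0 among all tested.

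The largest rises by the rule for named peaks were in HTR1F, a serotonin receptor gene, and MEF2A, which encodes a transcription factor. That rule took the largest rises and falls only among called peaks whose 3 K513R values lay on 1 side of the 3 WT values. Separation of the genotypes in these peaks was thus set by the choice. The HTR1F peak (chr3:87993239-87993480) had log2 IP over input of −1.50, −1.11 and −1.28 in WT and 0.65, −0.06 and 0.82 in K513R. The change was 1.97 ± 0.42 (SE, adjusted p = 0.00307). In MEF2A (chr15:99714240-99714301) the values were −1.83, −1.78 and −1.55 in WT and 0.00, 0.85 and −0.41 in K513R, a change of 1.97 ± 0.41 (adjusted p = 0.00275). These peaks of weak WT enrichment were in the K513R list only. The peak of CD9, a tetraspanin, was in both lists and lay 343.5 bases from the gene end. Its values were −0.13, −0.21 and 0.03 in WT and 0.57, 1.56 and 2.06 in K513R (change 1.58 ± 0.34, adjusted p = 0.00361). These 3 rises passed the threshold in every fit that left out 1 library.

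GNAS, which encodes the stimulatory G protein alpha subunit, had its peak, in both lists, 150 bases before the gene end and the strongest level of these. Its values were 1.57, 1.27 and 1.94 in WT and 3.49, 4.59 and 2.26 in K513R. The change of 1.82 ± 0.50 (adjusted p = 0.015) lost the threshold without WT replicate 1, WT replicate 2 or K513R replicate 2, with an adjusted p of up to 0.07. The peaks of CLOCK and LSM8 were in the K513R list only. The circadian factor gene CLOCK rose by 1.89 ± 0.45 (adjusted p = 0.00633, and 0.0533 without WT replicate 2). LSM8, of the ring that binds U6 RNA, rose by 1.58 ± 0.46 (adjusted p = 0.0194, 0.0531 with library size scaling, and up to 0.094 without WT replicate 1, 2 or 3).

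The largest falls were in RTN4RL2, a Nogo receptor relative, and MYORG, a glycosidase gene. The RTN4RL2 peak had 0.04, 0.50 and −0.09 in WT and −0.80, −2.44 and −2.36 in K513R, a change of −2.38 ± 0.56 (adjusted p = 0.00605). The MYORG peak, 512 bases long, had 1.38, 2.28 and 1.33 in WT and −0.36, −0.59 and −0.91 in K513R, a change of −2.27 ± 0.40 (adjusted p = 0.00111). In CNOT9, a subunit of the CCR4-NOT deadenylase complex, values of 0.81, 1.15 and 0.87 stood against −0.50, −1.35 and −1.22, a change of −2.07 ± 0.32 (adjusted p = 0.000526). That peak lay 406 bases into the exon, just inside the limit. MYPOP, a Myb-related factor gene, had 0.80, 0.30 and 0.41 in WT and −1.35, −1.11 and −1.67 in K513R, a change of −2.0 ± 0.33 (adjusted p = 0.000717). The zinc finger gene ZNF460 fell by 2.01 on the log2 scale (adjusted p = 0.00466). These 5 calls held without any single library, of which MYORG and ZNF460 were in both lists and RTN4RL2, CNOT9 and MYPOP in the WT list only. PAFAH1B1, a dynein regulator with its peak in the WT list only, fell by 2.04 (adjusted p = 0.0125), and lost the threshold without WT replicate 1 or 2 (adjusted p up to 0.0722).

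**Figure D4:**
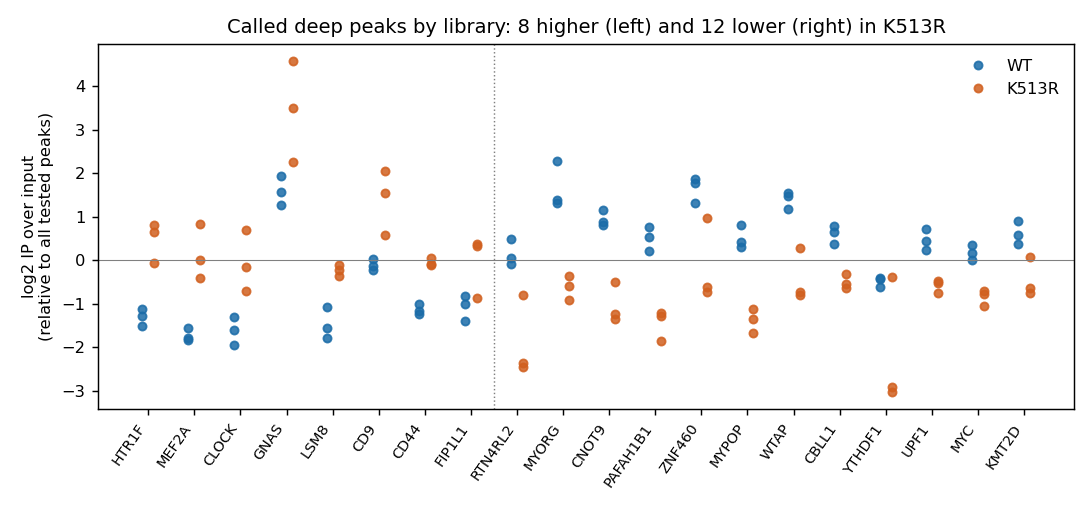
log2 IP over input (vertical axis) of 20 called deep peaks in the WT and K513R library pairs, 3 points each; left of the dotted line are peaks that rose and right of it peaks that fell. The genotypes overlap in YTHDF1, where K513R replicate 1 lies above the WT values, and in FIP1L1, where K513R replicate 3 lies among them.

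Of the 4 members with the highest deposited fold enrichment 1 was called. Their level from counts did not follow that ratio. The WT mean of log2 IP over input was 0.58 in ZNF181, 1.23 in NRBF2, 1.12 in ZNF283 and 0.03 in FAM171A1. The medians of all tested deep peaks in WT libraries were 0.34 to 0.39. ZNF181 had 0.41, 0.97 and 0.36 in WT and 0.47, 0.08 and 0.11 in K513R, which overlap (change −0.32 ± 0.31, adjusted p = 0.475). NRBF2 (−0.10 ± 0.23) and FAM171A1 (−0.26 ± 0.18) also did not pass the test. ZNF283 fell by 0.89 ± 0.28 (adjusted p = 0.0274), and did not pass it in the fit of non-redundant peaks or in 4 of the 6 fits without 1 library, all 3 WT replicates and K513R replicate 2 (adjusted p up to 0.123). Members lay up to 24269.5 bases into the exon. Of those with at least 5 input CPM, and taking 1 peak a gene, the farthest was that of the scaffold gene AHNAK2. It lay 17432.5 bases in and had a change of −0.13 ± 0.33. The peak of ABI2, a regulator of actin assembly, followed at 13027.5 bases in, with −0.29 ± 0.49, and was in the WT list only. The CNNM2 peak, 12711.5 bases in and in the WT list only, fell by 0.76 ± 0.27 (adjusted p = 0.0455), a call lost with only non-redundant peaks, with no low-count filter, and without K513R replicate 2 (adjusted p = 0.211) or any WT replicate. CNNM2 encodes a magnesium transport protein.

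Deep peaks of one gene did not always have the same sign. The 860 genes with at least 2 tested deep peaks had 423 in which all changes were negative, 91 in which all were positive and 346 with mixed signs. Of all tested deep peaks 70.1% had a negative change and some peaks of a gene share counts, so whether signs within a gene match more often than between genes was not tested. The median range within a gene was 0.79 (log2), beside a median SE of a single change of 0.47, and 6 genes held both a peak that rose and a peak that fell. EPPK1, which encodes the keratin-binding protein epiplakin, held the most deep peaks (20, in a last exon of 15975 bases). By edgeR 0 of its 12 tested peaks were called, and their median change was −0.10. AHNAK2 and RPAP2, a phosphatase of RNA polymerase, held 12 each and had 0 called peaks of 8 tested, with medians of −0.59 and −0.29. At an unadjusted p under 0.05 there were 2 falls in EPPK1, 0 in AHNAK2 and 1 in RPAP2, and DESeq2 called 0 in these 3 genes. Several peaks of EPPK1 and AHNAK2 overlap and share counts. RUBCN shows a split within 1 exon. The member over MIR922 had 1.10, 1.23 and 0.80 in WT and 1.81, 2.15 and 2.40 in K513R, all higher but not past the threshold (change 1.36 ± 0.55, adjusted p = 0.0789). Another RUBCN member, 5730 bases into the exon, had 0.70, 0.91 and 0.47 in WT and −1.22, −0.10 and −1.39 in K513R, a change of −2.14 ± 0.69 (adjusted p = 0.0298). That second call, in the WT list only, was lost in 5 of the 6 fits without 1 library, all but that without K513R replicate 2 (adjusted p up to 0.117).

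The 11 gene lists had 3 to 11 tested deep peaks each. Over all tested deep peaks 13.3% were lower and 3.59% higher, and with so few peaks a list the calls are given as single peaks and not as results about the lists. Of 9 writer genes 3 had a deep peak, and 2 of these 3 peaks fell. The peak of WTAP, the subunit that holds the writer complex in nuclear speckles, lay 410 bases into the last exon. Its values were 1.19, 1.55 and 1.48 in WT and 0.29, −0.78 and −0.73 in K513R, a change of −1.85 ± 0.30 (adjusted p = 0.000637). The peak of CBLL1 (HAKAI), another subunit, had 0.38, 0.79 and 0.65 in WT and −0.31, −0.55 and −0.64 in K513R (change −1.10 ± 0.25, adjusted p = 0.00515). Both peaks were in both lists and both calls held without any single library. The METTL14 peak had a change of 0.17 ± 0.89 and METTL3 had no deep peak. Readers and erasers had a deep peak in 6 of 12 genes, and of their 6 tested peaks that of the reader YTHDF1, in the WT list only, fell. Its values were −0.60, −0.43 and −0.39 in WT and −0.37, −3.03 and −2.91 in K513R, so replicate 1 of K513R lay above all WT libraries. Its change of −1.52 ± 0.54 (adjusted p = 0.0469) rose to an adjusted p of 0.242 without K513R replicate 2, was also lost without K513R replicate 3 or any WT replicate, and did not pass with only non-redundant peaks.

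The lists on RNA processing and decay gave 1 to 3 calls each. In the exon junction list 1 of 3 tested peaks fell, that of the nonsense-mediated decay helicase UPF1, which was in both lists. Its values were 0.72, 0.24 and 0.44 in WT and −0.52, −0.75 and −0.47 in K513R (change −1.06 ± 0.21, adjusted p = 0.00208, held without any single library). UPF2, its partner, had a change of −0.23 ± 0.19. In the cleavage and polyadenylation list 1 of 6 rose, FIP1L1 of the K513R list only with 1.03 ± 0.36 (adjusted p = 0.0439). That call was lost with library size scaling (adjusted p = 0.148) and without any single library except K513R replicate 3 (up to 0.184). In the deadenylation list 3 of 9 fell, in the CCR4-NOT scaffold partner CNOT2 (−1.15 ± 0.39), in PAN3 of the other deadenylase (−1.39 ± 0.44) and in TOB2, an adaptor (−0.77 ± 0.27, adjusted p = 0.048). CNOT2 is named after its value was seen, and the PAN3 peak was in the WT list only. All 3 were lost without any 1 of the WT replicates or without K513R replicate 2, and TOB2 without K513R replicate 3 too (adjusted p up to 0.136 for CNOT2, 0.135 for PAN3 and 0.217 for TOB2). CNOT2 and TOB2 also did not pass with no low-count filter or with only non-redundant peaks, and TOB2 not with DESeq2 or RLE scaling.

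In the microRNA silencing list 2 of 6 tested peaks fell, in DGCR8, the RNA-binding partner of DROSHA (−1.97 ± 0.51, adjusted p = 0.00971, named after its value was seen), and in AGO2, the slicing Argonaute (−1.60 ± 0.48, adjusted p = 0.0203). Both were in the WT list only and were lost without WT replicate 1, WT replicate 3 or K513R replicate 1, and AGO2 without WT replicate 2 too (adjusted p up to 0.0665 and 0.105). In the list of proteins that bind AU-rich and other elements of untranslated regions 0 of 9 passed edgeR's test, with 3 lower at an unadjusted p under 0.05 and 1 lower by DESeq2. Its members ZFP36L1 and KHSRP, which promote decay of such mRNAs, had −0.59 ± 0.22 and −0.73 ± 0.27. With each input paired to its IP as a replicate block, 3 of the 9 fell, ZFP36L1 (adjusted p = 0.0283), KHSRP (adjusted p = 0.0124) and ZFP36L2 (adjusted p = 0.0353). Of the 10 tested peaks of Wnt targets 2 rose and 2 fell. The peak of the proto-oncogene MYC (chr8:127740525-127741244, 488.5 bases into the last exon, fold enrichment 25.5) had 0.17, 0.34 and 0.00 in WT and −0.69, −1.05 and −0.77 in K513R, a change of −0.998 ± 0.195 (adjusted p = 0.002). The CD44 peak, of the K513R list only and in a receptor of hyaluronan, had −1.22, −1.005 and −1.16 in WT and −0.10, −0.08 and 0.05 in K513R, a rise of 1.18 ± 0.27 (adjusted p = 0.0051). MYC, in both lists, and CD44 held without any single library. The other 2 calls were a fall in APCDD1, a Wnt inhibitor (−1.74 ± 0.33), and a rise in a second peak of the cyclin gene CCND1 (1.62 ± 0.53), both named after their values were seen. APCDD1, in both lists, held without any single library, and this CCND1 peak, of the K513R list only, was lost with library size scaling and without any WT replicate or K513R replicate 2 (adjusted p up to 0.129).

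In the list of SETD1A, its COMPASS relatives and E2F4 partners, 2 of 8 fell, in the histone methyltransferase genes KMT2D (−1.04 ± 0.30, adjusted p = 0.0161, in a peak that also lies in exons of another gene) and KMT2A (−1.57 ± 0.53, adjusted p = 0.038, named after its value was seen). Both were in the WT list only. KMT2D was lost without WT replicate 2, WT replicate 3 or K513R replicate 2 (adjusted p up to 0.101). KMT2A was lost without any single library except K513R replicate 1 (up to 0.143), with no low-count filter and with only non-redundant peaks. In the retroelement silencing list 0 of 4 and in the double-stranded RNA and interferon list 0 of 11 passed edgeR's test (at an unadjusted p under 0.05 these were 0 and 2, and DESeq2 called 0 in either), with medians of −0.25 and +0.22. Within the latter, the 3 peaks of the kinase gene EIF2AK2 had 0.92 ± 0.46, 0.28 ± 0.60 (in the WT list only) and 0.69 ± 0.32.

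Deep peaks could be set against another peak of the same last exon, so that the gene is the same. Since exons were merged, the 2 peaks need not lie on the same transcripts. A pair joins a deep peak to the best covered peak in the first 400 bases of that exon, and there were 749 such pairs in 500 genes. A start peak counts once for each deep peak it is paired with. Over pairs the median m6A change was −0.51 for the start peak and −0.33 for the deep peak, and both changes were negative in 404 pairs. By edgeR the start peak fell in 117 pairs and the deep peak in 82, and both fell in 18 pairs. The median of deep minus start log2 IP over input was −0.03, −0.09 and −0.08 in WT and 0.16, 0.15 and 0.11 in K513R, all higher than WT. In limma, deep peaks gained on their start peak in 53 pairs (7.08%) and lost in 23 (3.07%). Over all 2082 pairs of any peak with a start peak the shares were 15.6% and 2.35%, with a median change of 0.39 against 0.15 in deep pairs. Of the 53 gains, 27 had a start peak that fell and 13 a deep peak that rose. Of the 23 losses, 20 had a deep peak that fell. In the 199 pairs with both peaks in both lists 17 gained and 5 lost, with a median change of 0.18. With at least 5 input CPM in both peaks, 26 of 183 deep pairs gained (14.2%, background 31.3%) and 17 lost (9.29%, background 6.65%), so gains outnumbered losses by less. Without WT replicate 1, 2 or 3, or K513R replicate 2, the gains numbered 9, 8, 13 and 33 and the losses 6, 5, 5 and 15.

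**Figure D5:**
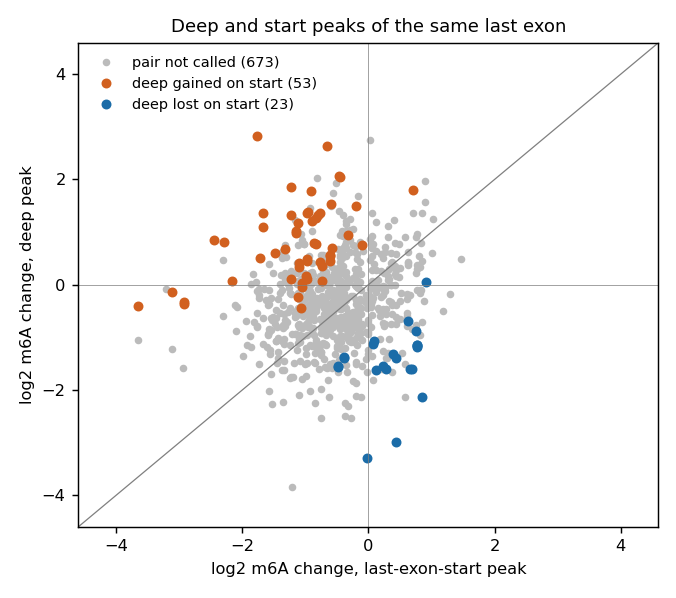
log2 m6A change (K513R minus WT) of the deep peak (vertical axis) against that of the start peak of the same last exon (horizontal axis) in 749 pairs; the diagonal marks equal change, and colours mark the pairs past the threshold for their difference. Most points lie left of 0 on the horizontal axis, and 53 pairs above the diagonal and 23 below it are called.

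The deep peaks of the named gains ZNF629, SC5D and STK4 were in the K513R list only and those of all 4 named losses in the WT list only, and TIMM10B was in both. STK4, a kinase of the Hippo pathway, had the named gain that held without any single library. Deep minus start was −1.33, −1.21 and −1.17 in WT and 2.05, 1.79 and 0.53 in K513R, a change of 2.69 ± 0.48 (adjusted p = 0.00316). Its start peak fell by 1.68 ± 0.45 and its deep peak rose by 1.36 ± 0.40 (adjusted p = 0.0193), a rise that alone was lost with library size scaling and without any single library except K513R replicate 3 (up to 0.126). The other named gains were in ZNF629 (3.41 ± 0.75, adjusted p = 0.00843), SC5D of cholesterol synthesis (3.22 ± 0.74) and TIMM10B of mitochondrial import (3.06 ± 0.82), each with a deep peak of under 2 input CPM. Without WT replicate 2 these 3 reached an adjusted p of 0.0578, 0.0673 and 0.1, and without WT replicate 1 the last 2 were lost as well. GPSM2, which orients the mitotic spindle, had the loss that held without any single library. Its deep minus start values were −1.51, −1.08 and −0.54 in WT and −2.26, −3.48 and −3.35 in K513R (change −1.98 ± 0.39, adjusted p = 0.00552). RUBCN (−2.43 ± 0.67), the growth factor gene BMP7 (−2.40 ± 0.66) and CIAO1 of iron-sulfur assembly (−1.93 ± 0.60) lost the threshold without WT replicate 1, 2 or 3, with adjusted p of up to 0.106, 0.12 and 0.163. CIAO1 was lost without K513R replicate 2 too and with 2 CPM added (adjusted p = 0.12) or library size scaling (0.0568).

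RNA far into the last exon could be set against RNA at its start in the inputs alone. The median of deep minus start log2 input was −0.36, −0.47 and −0.37 in WT and −0.38, −0.34 and −0.36 in K513R, which overlap. In limma 6 of 749 pairs gained input coverage deep in the exon (0.801%, background 0.72%) and 0 lost it (background 0.0961%). At an unadjusted p under 0.05 there were 65 gains and 35 losses. The share of gains is near the background. With at least 5 input CPM in both peaks, 9 of 183 gained (4.92%, background 4.05%) and 0 lost it (0%, background 1.3%). The gain of EZR, which encodes the membrane linker ezrin, had the smallest adjusted p of them. Its deep minus start input was −1.93, −2.29 and −1.93 in WT and −0.998, −0.05 and −0.01 in K513R, a change of 1.69 ± 0.22 (adjusted p = 0.00233, and 0.0524 without WT replicate 2). Its m6A difference between the 2 peaks was 0.08 ± 0.15. In GPSM2 the deep input gained 1.87 ± 0.39 while the deep m6A lost, and these 2 values share the same input counts. RPL14, a ribosomal protein gene, and ZBED6, a transcription factor gene whose peak also lies in exons of another gene, gained 1.52 ± 0.34 and 1.14 ± 0.25, both with an adjusted p of 0.0485. RPL14 and ZBED6 did not pass with library size scaling (both 0.0532). GPSM2, RPL14 and ZBED6 were lost without any single library except K513R replicate 1, with adjusted p of up to 0.231, 0.271 and 0.352. Leaving out 1 library gave 0 to 17 gains and 0 to 7 losses, the highest of both without K513R replicate 1.

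Genes with a deep peak were compared in the inputs, by counts summed over their peaks, and in the separate total RNA libraries. In the inputs 610 of 3600 host genes were higher in K513R (16.9%, background 13.4%) and 334 lower (9.28%, background 13.1%). In RNA-seq 1493 of 4610 were higher (32.4%, background 41.5%) and 2336 lower (50.7%, background 36.9%). The RNA-seq split depends on scaling, since with upper-quartile factors, which moved the median of all genes from 0.13 to 0.39, 1844 were higher (40%, background 47.2%) and 1970 lower (42.7%, background 31.4%). The same factors gave 583 higher (16.2%, background 12.8%) and 363 lower (10.1%, background 14%) in the inputs. Genes with a peak but no deep peak had 29.6% higher and 53.0% lower in RNA-seq, close to the host genes, and 10.7% higher and 16.1% lower in the inputs. Without WT replicate 1, 2 or 3 the host genes higher in the inputs numbered 386, 387 and 404, and those lower 210 without WT replicate 2.

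Where a deep peak fell, the gene's input level was more often higher. Among 503 tested genes with a lower deep peak and no higher one, 164 were higher (32.6%) and 28 lower in the inputs. Among 130 genes with a higher deep peak and no lower one, 19 were higher and 33 lower (25.4%). These counts are not independent of the m6A change, which has the same inputs as its denominator. In RNA-seq, whose libraries the peaks do not share, the first genes had 36.8% higher and 47.2% lower and the second 25.6% higher and 59.4% lower. Genes with tested deep peaks of which none was called had 32.5% higher and 51.0% lower in RNA-seq. In the inputs these genes had 15.3% higher and 7.91% lower. The groups of genes were not tested against each other. WTAP was 116 ± 2.76 CPM (SD, n = 3) in WT inputs and 191 ± 20.0 in K513R inputs. In RNA-seq it changed by 0.42 ± 0.11 (log2, edgeR adjusted p = 0.00146). UPF1 was at 155 ± 8.62 and 168 ± 11.5 CPM in the inputs (log2 change 0.11 ± 0.11, edgeR adjusted p = 0.489). It fell in RNA-seq, from 78.5 ± 8.30 to 55.3 ± 2.98 CPM (−0.50 ± 0.11, edgeR adjusted p = 0.000376). The size depends on scaling, since upper-quartile factors gave UPF1 −0.24 ± 0.11 in RNA-seq (edgeR adjusted p = 0.047). The same factors gave 0.68 ± 0.10 in WTAP and 0.67 ± 0.10 in METTL3. MYC was at 414 ± 36.0 CPM in WT and 444 ± 18.7 in K513R inputs (log2 change 0.10 ± 0.09, edgeR adjusted p = 0.465). In RNA-seq MYC was at 132 ± 14.1 CPM in WT and 9.49 ± 0.276 in K513R (−3.80 ± 0.12, edgeR adjusted p = 5.97e-14). The inputs and RNA-seq thus differ widely for this gene, and the reason was not tested. METTL3 itself was 39.2 ± 0.90 CPM in WT and 52.0 ± 2.44 in K513R RNA-seq (log2 change 0.41 ± 0.10) and 84.0 ± 2.07 and 77.5 ± 3.01 CPM in the inputs (−0.12 ± 0.12, edgeR adjusted p = 0.494), which does not check a substitution in its protein.

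The label of the cells was read from RNA-seq markers. Of 12 colorectal epithelial markers 8 had at least 1 CPM in every library, and KRT20, LGALS4, CEACAM5 and CLDN3 did not. Their summed level was 11018 to 16536 CPM in WT and 2233 to 2670 in K513R. Blood markers summed to 17.6 to 21.2 CPM in WT and 42.6 to 44.0 in K513R, and endothelial markers to 1.08 to 1.54 and 3.36 to 4.20, both higher in K513R without overlap. Of 7 blood markers 2 and of 4 endothelial markers 0 had at least 1 CPM in every library. Fibroblast markers summed to 30.5 to 45.2 CPM in WT and 34.1 to 47.4 in K513R, which overlap. In bulk RNA fewer cells of a type and less RNA per cell cannot be told apart, and the part of these levels in the m6A changes was not tested.

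In the authors' deposited table of their own comparison, 165 of the 7889 deep peaks were higher and 1103 lower in K513R (2.09% and 13.98%), and of all deposited peaks 3086 were higher and 5180 lower (7.77% and 13.05%). Of the 714 deep peaks called by the interaction fit, 680 were called in the same direction in the authors' deposited table. Both comparisons rest on the same MeRIP libraries, so the match is not independent evidence.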

How the data were processed

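The authors deposited raw counts per gene of the 6 RNA-seq libraries and, in a peak table, raw counts per peak of the 12 MeRIP libraries. Per the file headers, fold enrichment is the authors' ratio of IP over input per peak, and the deposited p-value and FDR columns and the authors' log2 difference between genotypes come from their own analysis. The build is GRCh38 and the tools are edgeR 3.12.1, deepTools, featureCounts (Subread 1.5.1), Trimmomatic 0.36 and bedtools, per the submitters' processing notes. Which aligner and which peak caller were used is not given in the sources used here. Of the members 30.8% lie within the span of a gene on the other strand.

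All tests were two-sided, and a call needs an adjusted p (Benjamini-Hochberg, over every feature tested) under 0.05. Peaks were tested with edgeR 4.0.16 (R 4.3.3, quasi-likelihood, filterByExpr, TMM factors within IP and within input) by the interaction of genotype and IP, genes with edgeR by genotype, and pairs of peaks with limma 3.58.1 on per-library differences (0.5 CPM added). On simulated data of 26559 peaks the peak fit recovered 26% of 100 log2 changes of 1 and 87% of 100 changes of 2. These changes were planted only in peaks above a floor of mean counts, so recovery in shallower peaks was not measured.

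Named peaks are the 6 largest rises and falls past the threshold with libraries that separate the genotypes and at least 5 input CPM. With at least 5 input CPM, the 4 of the WT list with the highest deposited fold enrichment are also named. So are the 3 farthest into the exon with at least 5 input CPM (1 a gene) and the 3 genes with most deep peaks. The rest are the 4 largest relative gains and losses of m6A and of input, and the best covered peaks of 11 gene lists. Exceptions are marked. The members and lists were chosen with earlier results of these data known. Input and IP of 1 number are parts of the same fragments, per the labels' protocols (correlation of deviations 0.0429 to 0.217). Alternatives were other scaling, filters, DESeq2 1.42.0, thresholds, blocks and leaving out each library.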

Additional observations from a re-analysis of the deposited data

How the results depend on the processing

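None of the results recomputed over all members changed direction under the alternatives run, whereas the median beyond 5000 bases, −0.13 over all tested members, was +0.22 in those of both lists. Depth is a limit, since 3660 deep peaks could not be tested and calls follow input depth. Without 1 library in turn, falls of m6A numbered 179 to 709, rises 44 to 188 and the median change was −0.42 to −0.38. Relative m6A gains numbered 8 to 61 and losses 5 to 30, relative input gains 0 to 17 and losses 0 to 7. Host genes higher and lower in the inputs numbered 386 to 696 and 210 to 467, and in RNA-seq 1348 to 1474 and 2245 to 2380. Of 50 named results past the threshold, 18 held in every such fit, among them 8 of the 14 in peaks of both lists.

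Library size alone gave 68 rises and a median of −0.62, no low-count filter a median of −0.45, and only non-redundant peaks −0.27. With a limit of 600 bases the median was −0.35, and with 1000 bases 277 fell with a median of −0.33. Members at or above the median enrichment of all peaks gave 22 rises, 342 falls and −0.53. Members in both lists, an alternative chosen after seeing the data, gave 72, 227 and −0.21. An adjusted p under 0.01 left 47 rises and 167 falls.

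In the 183 pairs with at least 5 CPM, 26 gained relative m6A and 17 lost it, and 9 gained relative input. Over all pairs library size gave 3 relative input gains and 2 CPM added 14. Upper-quartile factors gave 1844 host genes higher and 1970 lower in RNA-seq. A replicate block that paired input with IP gave 197 rises and 704 falls. A replicate block across genotypes gave 158 and 590, and across genotypes the correlation of deviations of same-numbered libraries was −0.0429 to 0.00508 for log2 IP over input, so these numbers do not pair the genotypes. Neither block moved a count by over 1.5 times, and of the named calls the block across genotypes ended that of the RPL14 input gain (adjusted p = 0.0737). The block that paired input with IP ended no named call and added 5. They were falls of ZFP36L1, KHSRP, ZFP36L2 and TFDP1 (in the WT list only, −0.97, adjusted p = 0.0295) and a rise of EZR (0.42, adjusted p = 0.0302).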
